A study of Mus musculus with 9 samples.

Results

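The genes described here are 10 feedback inhibitors of the extracellular signal-regulated kinase (ERK) pathway: the dual-specificity phosphatases Dusp1, Dusp2, Dusp4, Dusp5, Dusp6 and Dusp10, the Sprouty genes Spry1 and Spry2, and the SPRED genes Spred1 and Spred2. They were taken by gene symbol from a table of 41978 genes, and all 10 were found in it. All 10 also passed the filter for low values (3 or more samples at 1 TPM or above, where TPM is read signal scaled for length and to a fixed total per sample), which left 30693 genes for testing. RNA was sequenced from CD4 single-positive (SP4) thymocytes of the semi-mature stage, taken from mice that carry Nur77-eGFP BAC Tg, a transgene in which GFP reports transcription of Nr4a1, the gene for Nur77. Live CD25- CD69+ CD24+ CD4+ CD8- cells were sorted by GFP into GFPlo, GFPmed and GFPhi, each about 10% of these cells, with 10000 cells per sample and 3 samples per gate, which the labels call biological replicates. No group was treated, all 9 samples share the transgene and the untreated thymus, and mice of the study were of both sexes and 3 to 10 weeks old. GFP stands in for T cell receptor (TCR) signaling by self-antigen, so the comparison asks how the brakes on ERK vary with natural self-reactivity in an unmanipulated repertoire.

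TCR ligation activates RAS through RasGRP and SOS, and RAS in turn drives RAF, MEK and ERK. ERK is best known in the thymus for its part in positive and negative selection. Phosphorylated ERK induces genes whose products turn the pathway off: dual-specificity phosphatases remove the activating phosphates from MAP kinases, Sprouty proteins restrain signaling upstream of RAF, and SPRED proteins bring the RAS GTPase-activating protein neurofibromin to the membrane. The phosphatases differ in where they act and on what. Dusp1, Dusp2, Dusp4 and Dusp5 are nuclear, Dusp6 is cytoplasmic, Dusp5 and Dusp6 prefer ERK, and Dusp10 acts mainly on JNK and p38.

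Promoter sequences are shown for the members that passed the test between GFPhi and GFPlo, where one was at hand, and for Dusp1, which lay next to the threshold. They are the 250 bases before the RefSeq transcription start in mouse GRCm38.p6, 5′ to 3′ on the gene's strand. A sequence was matched for 9 of 10 members, all but Dusp4. Capitals mark matches, on either strand, to the motifs named after the sequences. Dusp1 is at chr17:26508473-26508722 (minus strand), Dusp2 at chr2:127335909-127336158 (plus), Dusp5 at chr19:53528895-53529144 (plus), Dusp6 at chr10:99262981-99263230 (plus) and Spry1 at chr3:37639697-37639946 (plus).
Dusp1: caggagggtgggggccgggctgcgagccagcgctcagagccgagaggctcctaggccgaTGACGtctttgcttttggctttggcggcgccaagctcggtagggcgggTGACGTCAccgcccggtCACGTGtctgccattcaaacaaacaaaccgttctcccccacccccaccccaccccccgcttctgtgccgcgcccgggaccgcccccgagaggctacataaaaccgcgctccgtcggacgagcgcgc
Dusp2: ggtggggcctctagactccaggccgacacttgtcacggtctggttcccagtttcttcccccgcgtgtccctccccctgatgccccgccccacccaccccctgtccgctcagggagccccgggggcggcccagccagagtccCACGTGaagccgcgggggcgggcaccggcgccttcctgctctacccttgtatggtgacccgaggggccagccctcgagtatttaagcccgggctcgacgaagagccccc
Dusp5: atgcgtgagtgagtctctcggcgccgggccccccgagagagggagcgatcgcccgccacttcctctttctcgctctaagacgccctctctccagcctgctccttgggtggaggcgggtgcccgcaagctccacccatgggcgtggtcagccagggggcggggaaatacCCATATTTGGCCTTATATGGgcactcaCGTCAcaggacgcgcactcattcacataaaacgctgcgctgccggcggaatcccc
Dusp6: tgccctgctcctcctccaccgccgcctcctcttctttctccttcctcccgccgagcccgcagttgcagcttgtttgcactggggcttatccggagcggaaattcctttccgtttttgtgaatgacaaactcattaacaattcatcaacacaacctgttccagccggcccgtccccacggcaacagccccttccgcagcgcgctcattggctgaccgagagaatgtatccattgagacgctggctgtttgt
Spry1: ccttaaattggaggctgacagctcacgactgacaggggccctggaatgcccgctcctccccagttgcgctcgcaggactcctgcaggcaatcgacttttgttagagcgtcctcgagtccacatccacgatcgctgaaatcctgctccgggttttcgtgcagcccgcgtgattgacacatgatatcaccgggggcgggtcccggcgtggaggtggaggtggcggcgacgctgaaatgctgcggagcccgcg

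The windows were searched for the cAMP response element (CRE) TGACGTCA, its core TGACG, which every full CRE contains, the AP-1 site TGACTCA, the Nr4a monomer site (NBRE) AAAGGTCA, the serum response factor site (CArG box), the E-box CACGTG, the EGR site GCGTGGGCG and the ETS site CCGGAAG. Dusp1 held a full CRE from 143 to 136 bases before its start, as did 1.56% of 32536 promoters of the same length, and another CRE core from 191 to 187 bases before it. Dusp1 and Dusp2 each held an E-box (6.04% of promoters), from 126 to 121 and from 109 to 104 bases before the start. Dusp5 held a pair of CArG boxes that abut, from 82 to 73 and from 72 to 63 bases before the start, and 1.48% of promoters held at least one. It also held a CRE core (17.9% of promoters), as did Spred2. Dusp6, Dusp10, Spry1, Spry2 and Spred1 held no match in this window. The NBRE (1.35% of promoters), the AP-1 site (4.45%), the EGR site (0.541%) and the ETS site (6.95%) matched none of the 9 windows. These matches describe the letters in the window and do not show binding.

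Sequencing gave between 7465552 and 14943774 reads on genes per sample, as solved from the table. Of 9 SP4 markers, 7 did not pass between GFPhi and GFPlo, among them Cd3e, Cd3d and Cd4, with a lowest TPM of 1022, 1335 and 445 in any sample. The other 2, Cd69 and Bcl11b, were lower in GFPhi. Of the 7, Cd4 and Zbtb7b lay nearest the threshold (adjusted p = 0.0532 and 0.0739 by limma). Their mean TPM was 582 and 175 in GFPlo against 474 and 108 in GFPhi. Nr4a1, which the sort itself used through its reporter, had a TPM of 217 ± 32.1 (SD, n = 3) in GFPlo, 374 ± 28.6 in GFPmed and 840 ± 75.0 in GFPhi. The regulatory T cell list was highest in GFPhi. From GFPlo to GFPmed mean Foxp3 did not rise (6.75 and 6.33 TPM), while mean Il2ra (0.665 and 1.75) and Ikzf4 (6.53 and 11.8) were higher in GFPmed. Foxp3, Il2ra and Ikzf4 all passed the test between GFPhi and GFPlo, and their summed TPM ranged from 13.7 to 14.1 in GFPlo, 18.3 to 20.7 in GFPmed and 58.9 to 72.8 in GFPhi, although cells with surface CD25, the product of Il2ra, were gated out. Of the markers used for the gate, Cd69 measured 374.6 TPM in GFPlo and 215.7 in GFPhi (adjusted p = 0.0142 by limma) and Cd24a did not pass (104 against 96.6 TPM, adjusted p = 0.808). Bcl11b, a factor of T cell identity, measured 62.1 TPM in GFPlo and 42.5 in GFPhi (limma adjusted p = 0.0202). Among CD8 T cell markers Cd8a and Cd8b1 fell and Runx3 rose, and of the thymic epithelial list Epcam alone rose. None of the B cell, myeloid, dendritic, NK, erythroid or stromal markers passed. The part of these shifts in the results below was not tested, and in sorted bulk samples a change in the share of a cell type and a change in RNA per cell cannot be told apart.

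Between GFPhi and GFPlo, 5 of the 10 genes moved, and not in one direction. Dusp2, Dusp4, Dusp5 and Spry1 rose in GFPhi, Dusp6 fell, and Dusp1, Dusp10, Spry2, Spred1 and Spred2 did not pass. The test was limma on log2(TPM + 1) across all genes and all 9 samples, and the threshold was 0.05 on p-values adjusted by Benjamini and Hochberg's method. By this rule 4 of 10 members were higher and 1 of 10 was lower, against 2.38% and 1.51% of all genes tested. All 5 also changed by at least 1 on the log2 scale, a size that 1.26% of all genes reached upward and 0.404% downward together with the adjusted p. The median log2 fold change was 0.42 over the 10 members and -0.09 over all genes.

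Dusp2 encodes a nuclear phosphatase of ERK and p38 that activated lymphocytes induce. Its TPM was 332, 377 and 418 in the GFPlo samples, 517, 534 and 532 in GFPmed, and 937, 961 and 1068 in GFPhi. The 3 gates did not overlap, and their order followed GFP. The log2 fold change from GFPlo to GFPhi was 1.40 (SE 0.09, limma adjusted p = 0.00024), or 2.63 times the mean TPM.

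Dusp5, a nuclear phosphatase selective for ERK, followed the same order of gates. It measured 54.9, 46.6 and 56.0 TPM in GFPlo, 69.2, 66.0 and 62.0 in GFPmed, and 112, 144 and 119 in GFPhi. The GFPhi samples were all higher than the GFPmed samples, which in turn were all higher than the GFPlo samples. The log2 fold change between the outer gates was 1.23 (SE 0.12, limma adjusted p = 0.00129). The annotation places a gene on the opposite strand, AC137853.2, over 22.12% of the exonic bases of Dusp5. It was not analysed here, and without strand its reads could not be told from those of Dusp5.

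Dusp4 encodes a nuclear phosphatase of ERK and JNK. Its TPM was 1.335, 1.90 and 0.955 in GFPlo, 2.31, 1.79 and 2.06 in GFPmed, and 6.60, 8.08 and 6.34 in GFPhi. GFPlo and GFPmed overlapped, and all GFPhi samples were higher than both. The log2 fold change from GFPlo to GFPhi was 1.75 (SE 0.22, limma adjusted p = 0.00547). These values rest on 79 reads in the 3 GFPlo samples and 496 in the 3 GFPhi samples, a ratio of 4.96 per unit of depth with an exact 95% interval of 3.90 to 6.37 that covers counting error only.

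Spry1 restrains receptor signaling to RAS and ERK. It was close to absent in GFPlo, with 6, 2 and 1 reads and a TPM of 0.996, 0.266 and 0.145. GFPmed had 20, 9 and 7 reads (1.73, 1.26 and 1.16 TPM) and GFPhi 58, 94 and 33 (5.99, 11.1 and 4.27 TPM). The gates did not overlap, and GFPhi varied most, with an SD of 3.56 TPM. The log2 fold change on the TPM + 1 scale was 2.42 (SE 0.36, limma adjusted p = 0.0105). The reads summed over each gate, 185 against 9, gave a ratio of 16.2 with an exact 95% interval of 8.36 to 36.0 for counting error. Of the 9 GFPlo reads, 6 were in replicate 1, and without it the ratio was 34.3 (185 against 3 reads, exact 95% interval 11.6 to 168). With a pseudocount of 0.1 the log2 fold change was 3.86, and with limma-voom it was 4.001. The call was lost when GFPlo replicate 2 was left out (adjusted p = 0.0524) and when GFPmed was left out of the fit (adjusted p = 0.0614). Gm42922, which lies antisense to Spry1 and covers 24.43% of its exonic bases, had 0 to 3 reads per sample in GFPlo and GFPmed and 5 to 10 in GFPhi, so the partners could not be told apart without strand.

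Dusp6, the cytoplasmic phosphatase of ERK, was the member that fell. Its TPM was 524, 548 and 575 in GFPlo, 469, 470 and 496 in GFPmed, and 272, 241 and 302 in GFPhi. The 3 gates did not overlap, and their order ran opposite to that of Dusp2 and Dusp5. The log2 fold change was -1.02 (SE 0.08, limma adjusted p = 0.000725), so mean TPM in GFPhi was 0.495 times that in GFPlo. Dusp6 was also the member with the most reads in GFPlo, 1961 to 2557 per sample, so this fall did not rest on low counts.

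**Figure D1:**
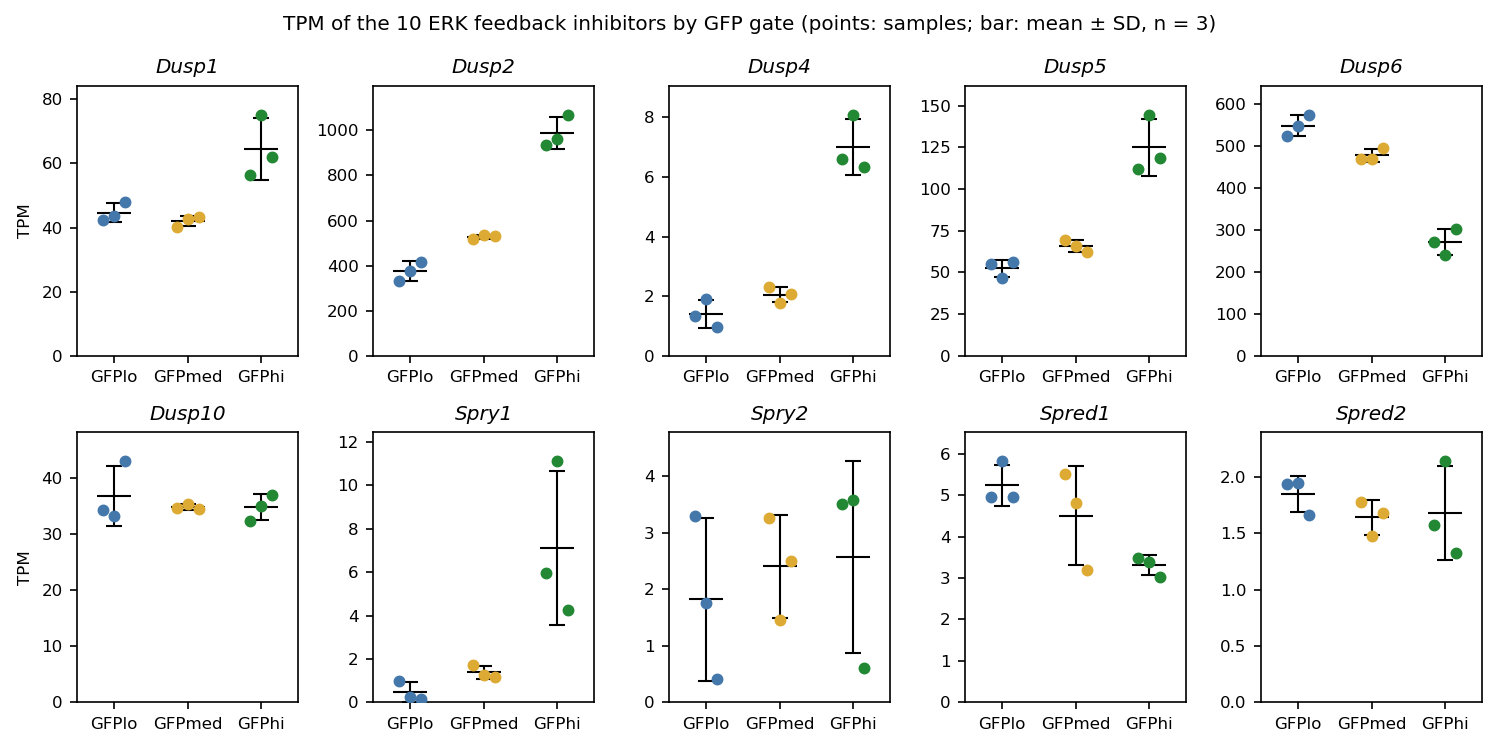
TPM of each of the 10 members (vertical axes, starting at 0 and scaled per gene) in the GFPlo, GFPmed and GFPhi gates; points are samples and bars the mean ± SD (n = 3). Dusp2, Dusp4, Dusp5 and Spry1 are highest in GFPhi, Dusp6 is lowest there (241 to 302 TPM), and Dusp10, Spry2 and Spred2 overlap across gates.

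The other 5 members did not pass between the outer gates. Dusp1, an early-response nuclear phosphatase of p38, JNK and ERK, was nearest. It measured 42.4, 43.7 and 48.0 TPM in GFPlo, 40.2, 42.7 and 43.2 in GFPmed, and 56.4, 75.1 and 62.0 in GFPhi. All GFPhi samples were above all others, while GFPlo and GFPmed overlapped. The log2 fold change was 0.51 (SE 0.11, limma adjusted p = 0.0509), and it passed in 3 of 18 alternative settings, among them leaving out GFPhi replicate 1 (adjusted p = 0.0379).

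Spred1 ran the other way, with 4.95, 5.81 and 4.95 TPM in GFPlo, 5.51, 4.81 and 3.20 in GFPmed, and 3.48, 3.40 and 3.03 in GFPhi. GFPhi lay below GFPlo without overlap, but the log2 fold change of -0.53 (SE 0.22) did not pass (limma adjusted p = 0.323). With limma-voom on the solved reads Spred1 came nearer the threshold, at -0.61 (SE 0.19, adjusted p = 0.0656), and did not pass either. Dusp10, whose substrates are JNK and p38, was nearly level: its TPM was 33.2 to 42.9 in GFPlo, 34.4 to 35.4 in GFPmed and 32.3 to 37.0 in GFPhi. Its log2 fold change of -0.07 had a 95% interval from -0.33 to 0.19, which leaves out a doubling or halving. Spred2 measured 1.66 to 1.94 TPM in GFPlo and 1.32 to 2.14 in GFPhi, with a log2 fold change of -0.10 and an interval from -0.55 to 0.35. Spry2 had 3 to 40 reads per sample, and its interval for GFPhi against GFPlo, from -0.93 to 1.59, was too wide to show a change of either sign.

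Between GFPmed and GFPlo, 0 of 10 members passed limma's test, and limma-voom on the solved reads passed 0 as well. Only 0.0749% of all genes passed there. The lowest limma p-values of members before adjustment were 0.000604 for Dusp2, 0.0244 for Dusp5 and 0.0474 for Dusp6. The share of all genes at such unadjusted values is not given here, so they are not set against the 0.0749%. The log2 fold changes of these 3 members in this step were 0.49, 0.32 and -0.20. Between GFPhi and GFPmed, 3 of 10 members were higher (Dusp2, Dusp4 and Dusp5) and 1 of 10 lower (Dusp6), against 0.899% and 0.609% of all genes. The log2 fold changes were 0.90 for Dusp2 (SE 0.09), 1.39 for Dusp4 (SE 0.22), 0.91 for Dusp5 (SE 0.12) and -0.82 for Dusp6 (SE 0.08). Spry1 had a log2 fold change of 1.69 (SE 0.36) in this step and did not pass (limma adjusted p = 0.077).

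These calls were not equally firm. Over 18 alternative settings, Dusp2 and Dusp6 passed in 17, Dusp5 in 14 and Dusp4 in 6. Leaving out GFPmed replicate 2 or GFPmed replicate 3 ended the calls of Dusp4 (limma adjusted p = 0.139 and 0.113) and Dusp5 (0.0597 and 0.0559), so 1 of 10 members was then higher. Scaling the samples by the median of ratios took Dusp2, Dusp5 and Dusp6 just over the threshold (limma adjusted p = 0.0539, 0.0562 and 0.0554) and left Dusp4 under it.

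For the 5 genes that passed between the outer gates, GFPmed had gone 35.4% of the way from GFPlo to GFPhi on the log2 scale for Dusp2, 30.3% for Spry1, 26.2% for Dusp5, 20.8% for Dusp4 and 19.5% for Dusp6. Each thus moved further in the upper step than in the lower. The difference between the steps did not pass for any member (0 of 10, against 0.0195% of all genes, and 0 by limma-voom). The lowest limma p of a member before adjustment was 0.00296 for Dusp6 (adjusted p = 0.563). The share of all genes at such unadjusted values is not given here. The gates are not evenly spaced in GFP, so unequal steps do not give the shape of the relation to GFP.

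An exact permutation test of each member against gate order (two-sided, 9 samples, unadjusted, 10 tests) gave p = 0.00119 for Dusp2, Dusp5, Dusp6 and Spry1, the smallest value the design allows. The exact p was 0.00238 for Dusp4, 0.025 for Spred1 and 0.0274 for Dusp1. The values for Dusp10, Spry2 and Spred2 lay between 0.398 and 0.569. The trends of Dusp1, Spred1 and Spred2 depended on single samples: without GFPlo replicate 1, GFPhi replicate 2 or GFPhi replicate 3 the exact p for Dusp1 was 0.0536, 0.0696 and 0.0554, and without GFPlo replicate 2 that for Spred1 was 0.0661. With arrangements kept within replicate numbers (a replicate block) the exact p for Dusp1 was 0.0741, and quantile normalization gave an exact p of 0.117 for Spred1. Spred2, with an exact p of 0.398 over all samples, reached 0.025 without GFPhi replicate 2.

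**Figure D2:**
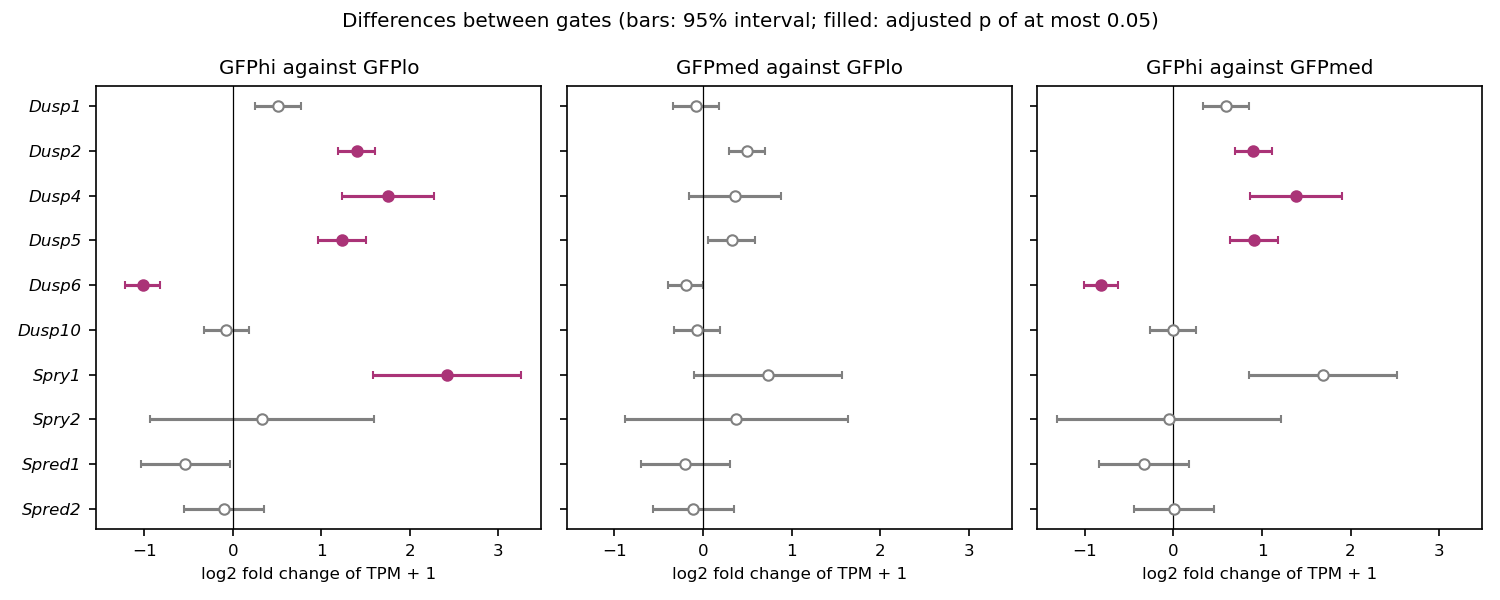
Log2 fold change of TPM + 1 (horizontal axis) for each member in the 3 pairs of gates; bars are 95% intervals and filled points passed at an adjusted p of at most 0.05. The 5 filled points between GFPhi and GFPlo become 0 between GFPmed and GFPlo and 4 between GFPhi and GFPmed.

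Levels of different genes were compared per exonic length, since the deposited TPM used a length that equalled the mean transcript span, introns included, for 98.44% of 41439 genes. On this exonic scale Dusp6 was the most abundant member in GFPlo, at 287 ± 13.5 TPM (SD, n = 3). Dusp10 followed at 226 ± 33.1, then Dusp2 at 167 ± 19.2 and Dusp5 at 162 ± 16.2, which overlapped, and Dusp1 at 94.8 ± 6.32. The SPRED genes, Dusp4 and the Sprouty genes came after, from 24.7 ± 2.32 for Spred1 to 0.425 ± 0.417 for Spry1. In GFPmed, Dusp6 (250 ± 9.01) was still first and Dusp2 (234 ± 5.08) had passed Dusp10 (213 ± 2.88). In GFPhi the order at the top had turned over: Dusp2 (438 ± 33.4) and Dusp5 (384 ± 46.7) led and overlapped each other, Dusp10 (213 ± 14.5) came next, and Dusp6 (142 ± 17.6) after it, overlapping Dusp1 (136 ± 18.3). Dusp4, at 18.4 ± 2.18 in GFPhi, had come level with Spred2 (18.01 ± 4.21) and Spred1 (15.6 ± 1.10).

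The exchange between Dusp2 and Dusp6 can be read within each library, free of any scaling between samples. The number of Dusp2 reads per Dusp6 read was 0.345, 0.374 and 0.396 in GFPlo, 0.599, 0.619 and 0.583 in GFPmed, and 1.88, 2.17 and 1.92 in GFPhi. The 3 gates did not overlap. The pair was chosen after its values were seen, so these ratios are a description.

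**Figure D3:**
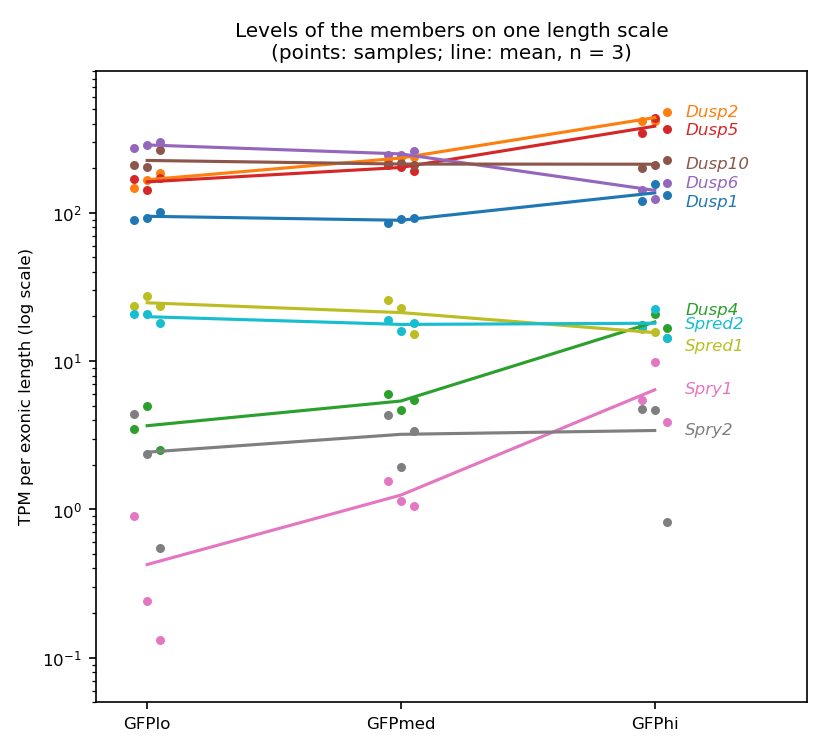
Level of each member per exonic length in TPM (vertical axis, log scale) in GFPlo, GFPmed and GFPhi; points are samples and lines join the means (n = 3). Dusp6 leads in GFPlo and GFPmed and has rank 4 in GFPhi, where Dusp2 and Dusp5 lead, and Spry1 stays the lowest member until GFPhi.

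How low the lowest members were can be seen beside 1530 olfactory and vomeronasal receptor genes, which thymocytes are not known to use. Their median exonic TPM was between 0.586 and 1.90 per sample and their 95th percentile between 6.35 and 11.4. Spry1 was at 0.132 to 0.903 in GFPlo, below the receptor median of each of these samples, at 1.05 to 1.56 in GFPmed, close to the receptor median, and at 3.89 to 9.87 in GFPhi, where it was over the 95th percentile in replicate 2 alone. Spry2, at 0.550 to 4.72 over all samples, was under the 95th percentile in every sample. Dusp4 at 2.51 to 6.03 in GFPlo and GFPmed was under the 95th percentile of each sample, and at 16.8 to 20.8 in GFPhi it was above it. This comparison was added after the data were seen.

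None of the further phosphatases and Sprouty or SPRED genes passed between the outer gates. In a list of other dual-specificity phosphatases and tyrosine phosphatases of MAP kinases, 0 of 11 genes tested passed by limma, against 3.89% of all genes. Of the 11, 2 had an unadjusted p under 0.05, and the share of all genes at such values is not given here. Dusp23 lay nearest (log2 fold change 0.99, SE 0.25, limma adjusted p = 0.0856). It measured 3.13, 5.30 and 3.95 TPM in GFPlo and 6.48, 11.1 and 10.0 in GFPhi, 2 gates that did not overlap. The 2 with the highest deposited TPM, which is not a ranking per exonic length, were Ptpn7, a tyrosine phosphatase of ERK and p38 in blood cells (268 ± 14.2 TPM in GFPlo and 227 ± 23.5 in GFPhi, SD, n = 3, adjusted p = 0.204), and Dusp11, a phosphatase of RNA (226 ± 17.0 and 212 ± 4.74 TPM, adjusted p = 0.73). Of the other 2 SPRED and Sprouty genes tested, Spred3 measured 0.163, 0.918 and 1.14 TPM in GFPlo and 4.27, 3.61 and 1.91 in GFPhi. Its gates did not overlap, but its log2 fold change of 1.30 (SE 0.32) did not pass (limma adjusted p = 0.0797). Spry4 reached at most 1.54 TPM and had a log2 fold change of -0.19 (limma adjusted p = 0.809).

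Other brakes on RAS and ERK included several that rose in GFPhi. Of 20 such genes tested, 6 were higher and 0 lower, with a median log2 fold change of 0.09 over the list. Rasa3, a GTPase-activating protein of RAS and RAP, went from 12.6 ± 1.65 TPM in GFPlo to 19.3 ± 3.27 in GFPmed and 46.3 ± 2.18 in GFPhi (log2 fold change 1.80, SE 0.14, limma adjusted p = 0.00061). Cblb, a ubiquitin ligase that limits TCR signaling, went from 4.29 ± 0.397 to 10.8 ± 1.05 TPM between the outer gates. Dgka, the kinase that removes the diacylglycerol which RasGRP needs, went from 201 ± 3.46 to 356 ± 27.0 TPM, and Ptpn22, a phosphatase of LCK and ZAP-70, from 26.6 ± 0.5003 to 46.3 ± 2.99. Pea15a, which holds ERK in the cytoplasm (log2 fold change 0.47), and Rasal1, another RAS GTPase-activating protein (0.83), also rose.

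The core RAS-RAF-MEK-ERK cascade held 2 higher and 2 lower genes of 25 tested, with a median log2 fold change of -0.08, near that of all genes. The exchange factors went apart. Rasgrp2, which acts mainly on RAP, measured 99.3 ± 6.52 TPM in GFPlo and 220 ± 15.04 in GFPhi, whereas Rasgrp1, the main RAS exchange factor of thymocytes, measured 130 ± 4.13 and 93.7 ± 6.34. Plcg1, which makes diacylglycerol, rose (log2 fold change 0.56, SE 0.07) and Map2k1, which encodes a MEK that phosphorylates ERK, fell (-0.39, SE 0.07). Neither Rasgrp1 nor Map2k1 passed with the samples scaled by the median of ratios. In the JNK, p38 and ERK5 cascades 1 gene rose and 1 fell of 16 tested. These were Mapkapk2, a kinase that p38 activates (12.1 ± 0.448 TPM in GFPlo, 42.8 ± 1.99 in GFPhi), and Mapk7, the gene for ERK5 (216 ± 19.8 and 147 ± 16.8).

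Transcripts that ERK is known to induce moved in both directions. Of 17 tested, 3 were higher and 4 lower in GFPhi. Egr1, an early-response factor, fell from 966 ± 32.6 TPM in GFPlo to 844 ± 32.4 in GFPmed and 569 ± 33.4 in GFPhi (log2 fold change -0.76, SE 0.06, limma adjusted p = 0.000544). Its relative Egr2 fell from 391 ± 4.19 to 209 ± 16.1 TPM, Jun, an AP-1 subunit, from 13.4 ± 1.91 to 2.95 ± 1.09, and Etv5, an ETS factor, from 10.0 ± 0.569 to 5.10 ± 0.738. In the other direction, Egr3 went from 21.3 ± 2.24 to 40.1 ± 10.1 TPM, Fosl2, another AP-1 subunit, from 2.56 ± 0.797 to 11.9 ± 4.15, and Phlda1 from 34.7 ± 9.53 to 84.5 ± 23.1. Of 16 transcription factors and kinases that ERK regulates at the protein level, Etv3, an ETS-family repressor, fell (120 ± 5.44 to 70.1 ± 9.93 TPM) and the other 15 did not pass.

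A list of 9 genes for transcription factors (Nr4a, NFAT, NF-kB, CREM and p53) had 5 higher and 0 lower. Of all genes tested, 2.38% were higher and 1.51% lower. Nr4a1 is the gene the reporter follows, so its rise is given by the sort. Nr4a3 went from 3.57 ± 0.355 to 17.0 ± 2.58 TPM, Nr4a2 from 4.01 ± 1.02 to 9.85 ± 2.72, Rel, an NF-kB subunit, from 15.3 ± 1.61 to 26.5 ± 3.08, and Nfatc1 from 12.7 ± 0.445 to 21.4 ± 2.86. Several list counts depended on the scaling. With the samples scaled by the median of ratios, 1 gene of the cascade was higher and 0 lower, and 1 of the ERK-induced transcripts was higher. On that scaling 0 genes were lower in the JNK, p38 and ERK5 list or among the factors and kinases that ERK regulates. Of the 9 genes in the Nr4a, NFAT, NF-kB, CREM and p53 list, 2 were then higher. The lists were drawn up with earlier results of these data known, and their counts describe these genes only.

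**Figure D4:**
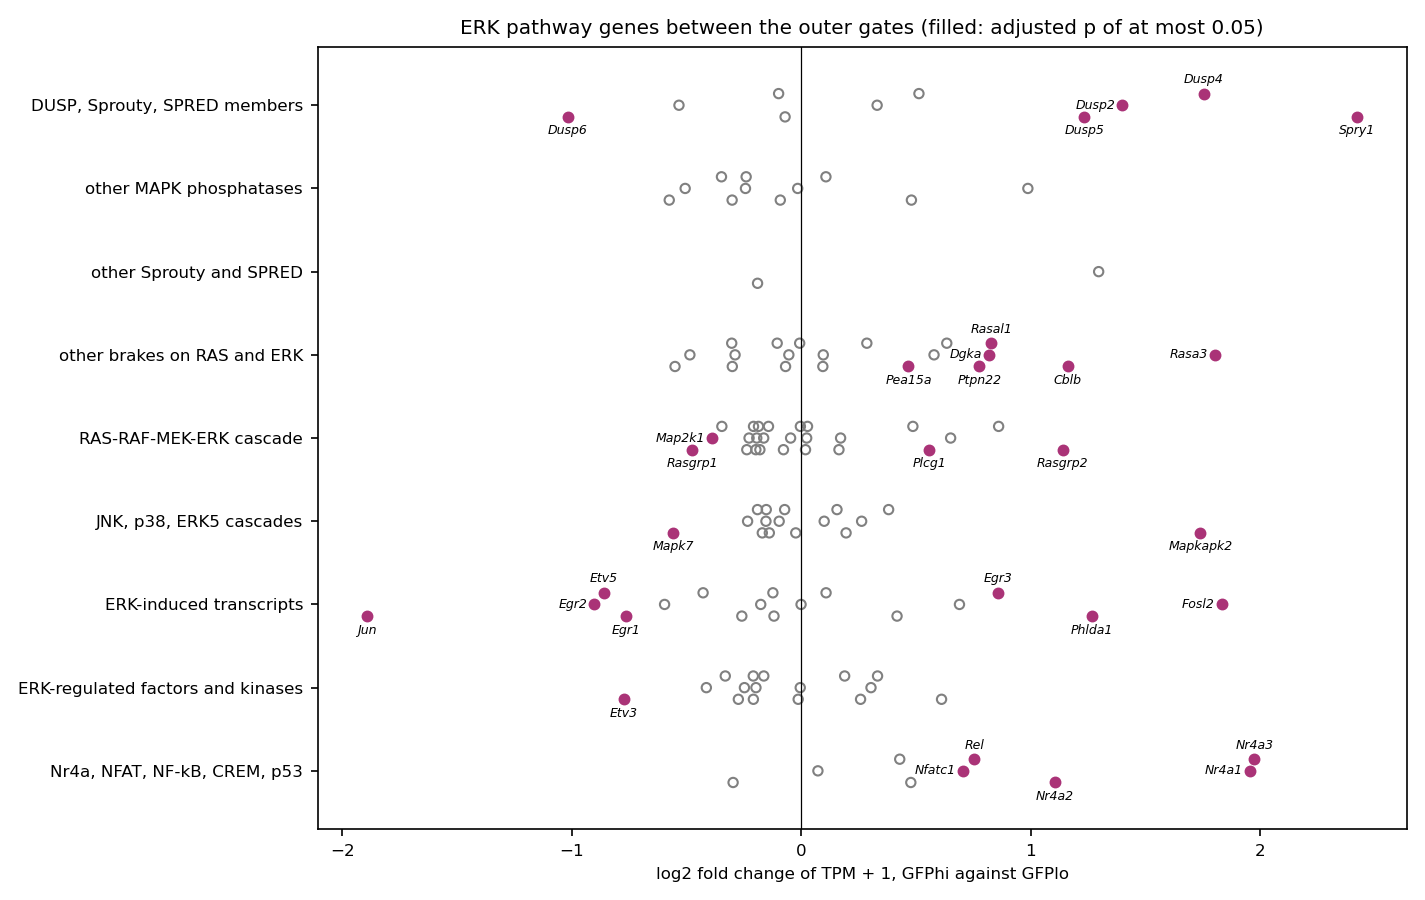
Log2 fold change of TPM + 1 in GFPhi against GFPlo (horizontal axis) for each gene tested in the members and the 8 pathway lists (rows); filled, named points passed at an adjusted p of at most 0.05, and vertical offsets within a row only separate points. The members that passed lie on both sides of 0, as do the ERK-induced transcripts (Egr1, Egr2, Etv5 and Jun left, Egr3, Fosl2 and Phlda1 right), while the 6 other brakes that passed lie on the right.

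The genes whose levels ran most like each moving member were found by Pearson's correlation of log2(TPM + 1) over the 9 samples, which share the 3 gates, among genes that reached 5 TPM in 3 or more samples (19011 other genes, or 19012 for members under that level). For Dusp2 they were E430024P14Rik (r = 0.997), Sptssa (0.994) and Grasp (0.992). For Dusp5 they included Git2 (r = 0.995) and Cast (0.994). Dusp4 ran most like Ndrg3 (r = 0.989), Orai3 (0.989) and Kit (0.987), and Spry1 most like Jmjd1c (0.989), Usp3 (0.988) and Tctn1 (0.982). Dusp6 ran most like Plekho2, Sec22c and Ighv1-77 (r = 0.99 for each). No member was among the 3 genes most like another, and with 3 gates any genes that change in the same order correlate highly.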

How the data were processed

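The 9 samples were assigned to gates from their labels. Per the methods, the authors trimmed the paired reads with Trim Galore, aligned them with STAR 2.7.11b to GRCm38 (mm10) with GENCODE genes, removed duplicates, and deposited TPM per sample, together with the normalized signal averaged per group (read counts over size factors from DESeq2 1.34.0). Columns of the authors' own fold changes, p-values and calls were not used, and 0 sample columns were left out.

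Because the table holds TPM, limma 3.58.1 (R 4.3.3, eBayes with a trend) was run on log2(TPM + 1). With a pseudocount of 1, fold changes of low genes are understated. Whole reads were solved from TPM and the group means for 41578 genes (400 were not solved). Within 0.05 reads, 100% of the values checked were whole. These reads gave the depths, the exonic-length TPM and a limma-voom alternative. The exact intervals treat reads as independent, so PCR copies left without molecular identifiers can make them too narrow even for counting error. They leave out the spread between samples. The fit was checked on simulated reads of well-covered genes, which shows nothing of its power for low genes such as Spry1. A first simulation, with more spread and with genes of fewer reads, recovered a smaller part of the changed genes. A gene that did not pass may therefore still differ. Positions and exonic lengths came from a GENCODE release earlier than the authors'.

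The members, gene lists and motifs were chosen with earlier results of these data known. Named genes were the members, the list genes that passed (at most 8 per list by lowest p, otherwise the 2 with the highest mean TPM), the 3 genes most like each member (given for those that moved, with 1 gene not reported here), and Nr4a1; Spred3 and Spry4 were the only ones tested of their list. The labels number the replicates, but the sources used here do not tie numbers to mice, so p-values measure the spread between these samples. Deviations of samples with the same number correlated at 0.0122 to 0.225 (mean 0.0609). Those of samples with different numbers correlated at -0.185 to 0.148 (mean -0.0305). The main fit did not use the numbers as pairs, and these values do not settle whether they share a mouse or a sort.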

Additional observations from a re-analysis of the deposited data

How the results depend on the processing

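The rise of Dusp2, Dusp4 and Dusp5 and the fall of Dusp6 between GFPhi and GFPlo passed in all 18 alternatives run (pseudocount, filter, scaling, samples in the fit, trend, replicate block, limma-voom and each sample left out), with log2 fold changes of 1.28 to 1.48, 1.62 to 2.38, 1.13 to 1.31 and -1.10 to -0.93. Spry1 passed in 15 of 17, with log2 fold changes of 2.09 to 4.001. No member passed between GFPmed and GFPlo, or for the difference of the steps, in any alternative. Leaving out one sample gave 3 to 5 members higher and 1 lower in GFPhi against GFPlo, and 1 to 3 higher and 1 lower in GFPhi against GFPmed. In that last step 1 member was higher with the replicate block, 1 higher and 0 lower with median-of-ratios scaling, and 5 higher with limma-voom (Dusp1 and Spry1 added). The share of all genes called in each alternative is not given here. These counts therefore do not show how the members stand against all genes. The block, in which replicate numbers stand as a factor although the sources do not tie them to mice, moved no other count of members by more than 1.5 times. It left 1 lower gene in the RAS-RAF-MEK-ERK cascade, 1 higher ERK-induced transcript and 3 higher genes in the Nr4a, NFAT, NF-kB, CREM and p53 list. Median-of-ratios scaling left 1 higher and 0 lower in the cascade, 0 lower in the JNK, p38 and ERK5 list and 1 higher ERK-induced transcript. It also left 0 lower ERK-regulated factors and 2 higher genes in the Nr4a, NFAT, NF-kB, CREM and p53 list. The cause was not tested.

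Signs turned 22 times, each for a member that passed no limma test in any pair of gates. With each sample left out in turn, the log2 fold change in GFPhi against GFPlo ran from -0.138 to 0.0422 for Dusp10 and from -0.0992 to 0.828 for Spry2, and in GFPmed against GFPlo from -0.134 to 0.0457 and from -0.0517 to 0.751. In GFPhi against GFPmed it ran from -0.0482 to 0.0475 for Dusp10, from -0.301 to 0.451 for Spry2 and from -0.110 to 0.107 for Spred2. The difference of the steps ran from -0.0492 to 0.131 for Dusp10, -0.862 to 0.0734 for Spry2, -0.500 to 0.132 for Spred1 and -0.000569 to 0.217 for Spred2. The exact trend p ran from 0.289 to 0.834 for Dusp10 from 0.116 to 0.855 for Spry2 and from 0.025 to 0.877 for Spred2. Quantile normalization gave 0.0263 for Spred2 in GFPhi against GFPlo, with an exact trend p of 0.940, and 0.0365 for Spry2 in GFPhi against GFPmed, where Dusp10 was at 0.0468 with median-of-ratios scaling and 0.0442 with limma-voom. A minimum of 5 TPM left out 4 members, so no value was had for them. Spry1, Spry2 and Dusp4 rest on few reads, and no detection limit was measured for them.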
